A study of Mus musculus with 8 samples.

Results

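The alpha-ketoglutarate-dependent dioxygenases examined here are 32 mouse genes that encode enzymes using alpha-ketoglutarate, oxygen and iron to hydroxylate or demethylate their substrates. They were taken by name, with no measured value used. They comprised 3 TET DNA demethylases, 15 JmjC histone demethylases (KDM), 3 nucleic acid demethylases, 5 prolyl hydroxylases and 6 other hydroxylases. A peak was counted to a member where the deposited table assigns that gene to it. Of the 67822 listed peaks, 210 were assigned to 30 of the members, out of 16095 genes with a peak. No peak was assigned to Alkbh1, a nucleic acid demethylase, or Plod2, a lysyl hydroxylase of collagen.

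Open chromatin was profiled with ATAC-seq, an assay based on a transposase that cuts accessible DNA, in CD11b-positive forebrain cells isolated on magnetic columns. One group of 4 libraries came from wild-type mice of the C57BL/6N strain. The other 4 came from Nlrp3-/- mice, a Cias1 knockout credited to Millennium Pharmaceuticals, which lack the sensor of an inflammasome. The labels give no age, no sex and no design of the knockout allele. They do not say whether replicates are separate animals, so the tests see the spread between libraries, part of which may be technical.

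Enzymes of this family couple the oxidation of alpha-ketoglutarate, a metabolite of the tricarboxylic acid cycle and of glutamine breakdown, to the oxidation of a substrate, and release succinate. Succinate and fumarate can inhibit them. TET enzymes oxidize 5-methylcytosine, JmjC enzymes remove methyl groups from histone lysines, Alkbh5 and Fto remove methyl groups from adenosine in RNA, and the Egln enzymes mark hypoxia-inducible factors for degradation.

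The promoter windows of 4 members are shown because results below return to them. Kdm4a has the highest level per kb, Kdm6a the smallest p among genes, Egln3 encodes an oxygen sensor whose gene is itself known to be induced by hypoxia-inducible factors, and Alkbh1 has no assigned peak. Each is the 250 bases before a RefSeq start site of the gene (GRCm38.p6), 5′ to 3′ on the gene's strand. For Egln3 and Alkbh1 it is the outermost start. The RefSeq span of Kdm6a begins upstream, at 18160862, and that of Kdm4a at 118180090, so the Kdm6a window lies inside the gene and the Kdm4a window partly so. Capitals mark ACGTG and the related core GCGTG, as found in hypoxia response elements, and the ETS core GGAAGT, on either strand. Overlapping matches are all counted.
Kdm4a (chr4:118180044-118180293, minus strand): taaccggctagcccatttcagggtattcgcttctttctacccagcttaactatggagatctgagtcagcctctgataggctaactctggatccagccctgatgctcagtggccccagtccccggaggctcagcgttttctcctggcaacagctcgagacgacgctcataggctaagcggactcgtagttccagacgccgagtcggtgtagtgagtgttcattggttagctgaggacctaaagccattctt
Kdm6a (chrX:18162325-18162574, plus strand): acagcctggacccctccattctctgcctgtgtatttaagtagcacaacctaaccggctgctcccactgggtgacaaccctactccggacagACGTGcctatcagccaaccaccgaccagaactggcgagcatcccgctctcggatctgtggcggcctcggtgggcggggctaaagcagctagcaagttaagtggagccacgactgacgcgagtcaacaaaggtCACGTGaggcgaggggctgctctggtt
Egln3 (chr12:54203875-54204124, minus strand): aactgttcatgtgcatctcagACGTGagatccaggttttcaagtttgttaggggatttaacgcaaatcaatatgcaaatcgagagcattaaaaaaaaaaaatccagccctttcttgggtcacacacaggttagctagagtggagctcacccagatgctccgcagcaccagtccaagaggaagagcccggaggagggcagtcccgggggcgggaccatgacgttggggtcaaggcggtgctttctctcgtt
Alkbh1 (chr12:87443840-87444089, minus strand): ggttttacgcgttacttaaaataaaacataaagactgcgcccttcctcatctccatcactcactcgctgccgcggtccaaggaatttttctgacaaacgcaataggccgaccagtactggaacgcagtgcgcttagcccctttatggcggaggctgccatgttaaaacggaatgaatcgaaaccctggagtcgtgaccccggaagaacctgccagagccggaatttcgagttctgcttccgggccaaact
The Kdm6a window held ACGTG 3 times, since the palindrome CACGTG counts on both strands. The Egln3 window held it once, and the Kdm4a and Alkbh1 windows held none of the 3 motifs. The reference table held 34 windows for 26 members, of which 29 windows, of 24 members, overlapped a listed peak. ACGTG was found in 13 of the 34 (38.2%), against 16.6% of all 32851 windows and 22.9% of the 11569 that overlap a peak. GCGTG was found in 55.9% of member windows, against 28.2% and 47.9%. GGAAGT was found in 17.6%, against 19.7% and 25.4%. Member windows held a median of 17.5 CG dinucleotides, against 6 in all windows and 17 in those over a peak. These matches are descriptions of letters, and no factor was measured.

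A peak assigned to the neighbouring gene Slirp (chr12:87443744-87444003) covered 164 of the 250 bases shown for Alkbh1. Its tags were 23, 17, 29 and 24 in the wild-type libraries and 8, 6, 26 and 40 in the knockout libraries, in replicate order. The Alkbh1 start is thus in accessible chromatin in these libraries, under another gene's name. Plod2 had no listed peak in its body or within 1 kb of it. Conversely, 41 peaks in the bodies of members, or within 1 kb, were assigned to other genes and are not counted here.

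The libraries held 11325865 to 15521580 tags. The share in peaks was 9.79% to 17.5% in wild type, and 6.68%, 4.96%, 20.9% and 26.2% in knockout replicates 1 to 4, so depth in peaks differed most within the knockout. Tags at the Nlrp3 promoter peak chr11:59541383-59541657 numbered 58 to 80 per wild-type library and 0 or 1 per knockout library, which fits the labels. All 10 microglia markers had peaks, and their summed level was 2101 to 2272 CPM in wild type and 2109 to 2456 in knockout. The lymphocyte and granulocyte markers Cd3e, S100a8, Ly6g and Ncr1 had no peak. All 5 border macrophage markers had peaks, with a summed level of 99.5 to 123 CPM in wild type and 111 to 119.8 in knockout. Summed levels in wild type and knockout were 65.7 to 75.2 and 54.1 to 93.0 CPM for neuron markers (Gad1 and Gad2 had no peak), 50.8 to 72.5 and 50.1 to 69.0 for astrocyte markers, 378 to 409 and 387 to 457 for oligodendrocyte lineage markers (Olig2 and Sox10 had no peak), and 320 to 353 and 307 to 354 for endothelial and mural markers. These marker sums in CPM are relative to all tags in listed peaks, without TMM scaling. Levels of genes in CPM below are tags relative to all tags in the tested genes, after TMM scaling.

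Member genes differed widely in the number and kind of their peaks. Jmjd1c, a JmjC protein related to H3K9 demethylases, had the most with 27, followed by Kdm2b (20), Tet2 (19), Kdm6b (16), P4ha2 (13), Kdm7a (12), P4ha1 (11) and Tet3 (10). The median member had 5 peaks, against 3 over all genes with a peak, and 8 members had at least 10, a number reached by 9.62% of all genes. Of the 210 peaks, 38 (18.1%) were annotated to promoters, 93 (44.3%) to introns and 67 (31.9%) to intergenic sequence. The shares over all peaks were 19.5%, 42.9% and 30.3%. In all, 154 lay in the gene or within 1 kb, and the farthest, an intronic Fto peak, was 237.6 kb from its start. Within groups, 48.7% of prolyl hydroxylase peaks and 45.2% of TET peaks were intergenic, against 23.4% of histone demethylase peaks. Of the 19 Tet2 peaks, 12 were intergenic, as were 10 of the 13 P4ha2 peaks.

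Accessibility per length of assigned peak was highest at Kdm4a, a demethylase of H3K9 and H3K36. Its 2 peaks had 263 ± 28.3 CPM per kb in wild type (SD, n = 4) and 266 ± 14.7 in knockout. Both lie within 0.364 kb of a start site. Of 8 peaks in the Kdm4a body or within 1 kb, 6 were assigned to other genes, here St3gal3, and do not enter this level. Kdm5c, a H3K4 demethylase, followed with 113 ± 35.0 in wild type, and Kdm4b with 103 ± 7.59. Kdm5c and Kdm4b did not differ beyond their spread, while Kdm4a lay above both. The lowest were Jmjd6 (22.8 ± 4.19), Egln1 (26.5 ± 3.09) and Tet1 (27.8 ± 4.58), which overlapped as well.

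**Figure D1:**
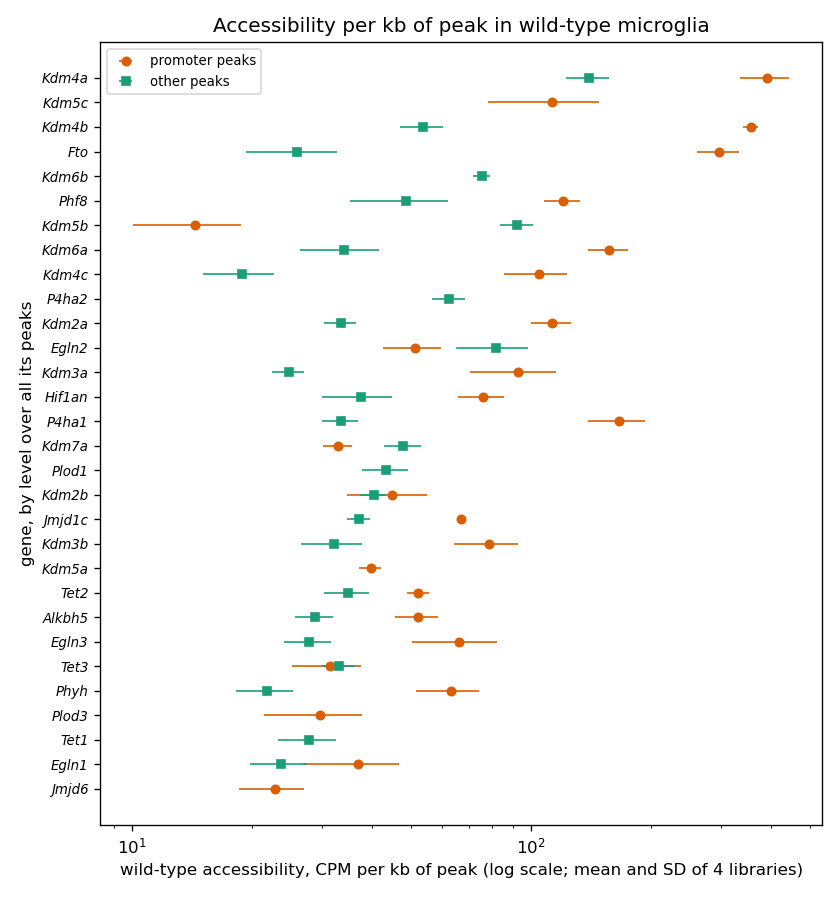
Wild-type accessibility in CPM per kb of peak (log axis) for the 30 members with a peak, at promoter peaks (orange circles) and other peaks (green squares), as mean and SD of 4 libraries. Genes are ordered by the level over all their peaks, with Kdm4a at the top, at 389 CPM per kb in its promoter peak.

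Of the 22 members with both kinds of peak, 18 had a higher level per kb at promoter peaks than at other peaks in wild type. The exceptions were Egln2, Kdm5b, Kdm7a and Tet3. At Tet3 the levels, 31.4 ± 6.16 at promoter peaks and 33.1 ± 3.15 at other peaks, did not differ beyond their spread. Promoter peaks were also higher over all tested peaks, on the scale of the fit of peaks. Their wild-type median was 61.3 CPM per kb, against 36.2 for intron and 37.7 for intergenic peaks. Promoter peaks of Kdm4a (389 ± 54.3 CPM per kb in wild type), Kdm4b (355 ± 15.01) and Fto (296 ± 35.7) were the most accessible of the members. They held 74.4% of Kdm4a, 56.4% of Kdm4b and 74.1% of Fto tags. Kdm6b, an H3K27 demethylase, had the most tags, 11.2% of those of all members, and no peak annotated as a promoter. P4ha2, Plod1 and Tet1 had none either. At Kdm5b, an H3K4 demethylase, the promoter peak held 6.58% of the gene's tags.

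No member passed the test between the genotypes. By edgeR's quasi-likelihood test, 0 of 185 tested member peaks had an adjusted p under 0.05, where 99 of all 58135 tested peaks did (0.17%). The other 25 member peaks were too low to test. Of the 185, 4 (2.16%) had an unadjusted p under 0.05, against 4.83% of all peaks. Of these, 2 were higher and 2 lower in knockout, where 2.61% and 2.22% of all peaks were. DESeq2 called 0 as well and gave 2 with an unadjusted p under 0.05. The fold changes of member peaks were even: 94 were above 0 and 91 below, with a median log2 of 0.0022, against 0.0037 over all peaks. At 4 member peaks the genotypes did not overlap, where 3.17% of all peaks had that property.

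Summed over each gene's peaks, 0 of the 30 tested members passed, where 0.213% of 15476 genes did, and 1 had an unadjusted p under 0.05, against 5.96%. DESeq2 called 0 and gave 0 at that unadjusted level. The median log2 fold change of knockout over wild type was 0.0067 for members (17 above 0, 13 below) and 0.0020 for all genes. Values ran from -0.43 for Plod3 to 0.33 for Kdm6a, and the smallest adjusted p was 0.797. At no member gene did the genotypes stay apart without overlap, as 3.46% of all genes did. The 95% interval lay within 1.5-fold for 26 of the 30 genes and within 2-fold for 29, with Plod3 the exception. Tet1, Kdm6a, Jmjd6 and Plod3 were the 4 genes whose interval passed 1.5-fold. At single peaks, 157 of 185 intervals lay within 2-fold and 59 within 1.5-fold. A p above the threshold does not show that accessibility was the same.

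**Figure D2:**
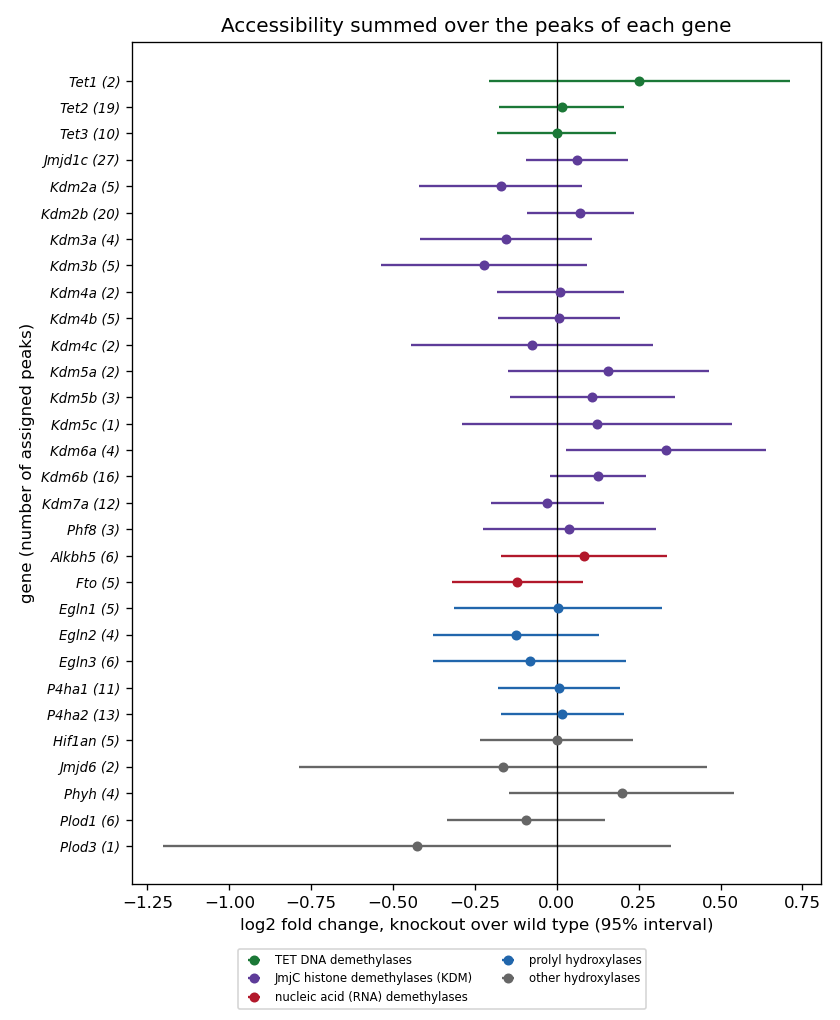
Log2 fold change (knockout over wild type) of tags summed per gene, with 95% intervals, for the 30 tested members. Values run from -0.43 (Plod3) to 0.33 (Kdm6a), and Kdm6a alone has an interval clear of 0 before adjustment.

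By group, the median gene log2 was 0.015 for the 3 TET genes, 0.038 for the 15 histone demethylases (10 above 0), 0.0034 for the 5 prolyl hydroxylases and -0.093 for the 5 other hydroxylases with a peak. It was -0.019 for the 2 RNA demethylases with a peak. Summed over a group, TET peaks held 354 ± 23.2 CPM in wild type and 369 ± 44.2 in knockout (SD, n = 4). Histone demethylases held 1885 ± 46.9 and 1939 ± 20.6. RNA demethylases held 175 ± 8.07 and 166 ± 13.01, prolyl hydroxylases 523 ± 17.8 and 527 ± 43.3, and other hydroxylases 212 ± 15.7 and 214 ± 25.3. In each group the libraries of both genotypes overlapped, and the sums were not tested.

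At the TET genes, Tet2 had summed values of 237, 234, 188 and 227 CPM in the wild-type libraries and 231, 268, 206 and 208 in the knockout libraries, in replicate order here and below. The genotypes overlapped (log2 0.015, SE 0.09, adjusted p = 0.997). Tet3 had a log2 of -0.00034 (SE 0.09) and Tet1 0.25 (SE 0.22). A Tet1 peak in the first intron (chr10:62885958-62886302) had 5.69 to 7.73 CPM in wild type and 6.15 to 13.2 in knockout, which overlapped (log2 0.59, SE 0.31, edgeR unadjusted p = 0.0699). Among Tet2 peaks, an intergenic one at chr3:133626723-133626983, 82463 bp from the start, had the smallest p of all member peaks. It held 7.46, 8.43, 7.40 and 6.06 CPM in wild type and 6.03, 4.43, 2.63 and 1.94 in knockout, where CPM of a single peak are relative to all tags in tested peaks. Every knockout library lay below every wild-type one, but the genotypes nearly met. Knockout replicate 1 had 6.03 CPM on 5 tags and wild-type replicate 4 had 6.06 on 13 tags, so this separation depends on the scaling. The log2 was -1.25 (SE 0.40, 95% interval -2.08 to -0.41, edgeR unadjusted p = 0.00481, adjusted p = 0.675), on 3 to 15 tags per library, and the peak came from the wild-type peak list only, a list made from these libraries. Without the shallow knockout replicates 1 and 2 the log2 was -1.66 (edgeR adjusted p = 0.112). That fit leaves out the knockout library that nearly met wild type. Over the 16 alternatives that tested this peak, the log2 ran from -1.66 to -0.91, and no adjusted p was below 0.112.

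Among histone demethylases, Kdm6a and Kdm6b, which both act on H3K27, had the smallest p-values. Kdm6b had 358, 339, 317 and 345 CPM in wild type and 378, 385, 370 and 356 in knockout. The highest wild-type library passed the lowest knockout one, so the genotypes overlapped (log2 0.13, SE 0.07, adjusted p = 0.881). A Kdm6b peak annotated to its 5' UTR (chr11:69408635-69408905) had 75.1, 68.2, 58.1 and 72.2 CPM in wild type and 82.0, 106, 89.1 and 75.05 in knockout. The lowest knockout value lay within the wild-type range (log2 0.34, SE 0.14, edgeR unadjusted p = 0.0188, adjusted p = 0.930). An intergenic Kdm6b peak at chr11:69418934-69419162 had no overlap, with 54.1 to 62.6 CPM in wild type and 65.0 to 70.0 in knockout (log2 0.21, SE 0.13, edgeR adjusted p = 1.00). At Kdm2a, an H3K36 demethylase, a peak in the 5' UTR had 8.85 to 13.1 CPM in wild type and 4.43 to 8.73 in knockout. It did not overlap (log2 -0.54, SE 0.29, edgeR unadjusted p = 0.0700, 3 to 27 tags per library), but the genotypes nearly met. Knockout replicate 4 had 8.73 CPM on 27 tags and wild-type replicate 4 had 8.85 on 19, so this separation depends on the scaling. At Kdm3b, an H3K9 demethylase, the promoter peak held 23 to 45 tags in wild type and 11, 0, 34 and 48 in knockout replicates 1 to 4. The count of 0 in knockout replicate 2 allows up to 4.43 CPM, and the genotypes overlapped in CPM (log2 -0.51, SE 0.30). The gene sums of the other histone demethylases, apart from the X-linked ones, overlapped as well. Among them the H3K9 demethylase Kdm3a had a log2 of -0.15 (SE 0.13), and Kdm2a had -0.17 (SE 0.12). In the Kdm4 family it was 0.011 (SE 0.09) for Kdm4a, 0.0073 (SE 0.09) for Kdm4b and -0.08 (SE 0.18) for Kdm4c. The H3K4 demethylases Kdm5a and Kdm5b had 0.16 (SE 0.15) and 0.11 (SE 0.12). Jmjd1c had 0.06 (SE 0.07), Kdm2b 0.07 (SE 0.08) and Kdm7a -0.03 (SE 0.08).

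For RNA demethylases, Fto had a log2 of -0.12 (SE 0.10) and Alkbh5 0.08 (SE 0.12). Alkbh5 lies 0.996 Mb from Nlrp3 on chromosome 11, and its 5 tested peaks ranged from -0.30 to 0.40. Of the other members, P4ha2 lies 5.44 Mb, Kdm6b 9.86 Mb and Jmjd6 57.3 Mb from Nlrp3 on that chromosome. P4ha2 and Kdm6b hold the 2 member peaks that were higher in knockout at an edgeR unadjusted p under 0.05. Any effect of this position was not tested. At the Fto promoter the tags were 158, 153, 170 and 199 in wild type and 69, 38, 185 and 281 in knockout (log2 -0.13, SE 0.11).

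For prolyl hydroxylases, the Egln genes, oxygen sensors, had log2 values of 0.0034 (Egln1, SE 0.15), -0.12 (Egln2, SE 0.12) and -0.08 (Egln3, SE 0.14). P4ha1 and P4ha2, catalytic subunits of collagen prolyl hydroxylase, had 0.0061 (SE 0.09) and 0.017 (SE 0.09). The P4ha2 peak with the smallest p, in an intron (chr11:54112887-54113208), had 17.9, 30.2, 21.1 and 20.96 CPM in wild type and 36.2, 38.4, 29.9 and 28.1 in knockout. Only wild-type replicate 2 reached the knockout range (log2 0.52, SE 0.20, edgeR unadjusted p = 0.0137, adjusted p = 0.880). Another P4ha2 peak, intergenic at chr11:54140015-54140239, had 14.4, 35.8, 22.8 and 24.2 CPM in wild type and 37.4, 45.8, 7.46 and 7.12 in knockout, so the knockout libraries stood on both sides of wild type. It passed only without knockout replicates 1 and 2 (log2 -1.70, edgeR adjusted p = 0.00246, against -0.44 and 1.00 with all libraries). An Egln3 intergenic peak, 40877 bp away, had 9.13 ± 2.25 CPM in wild type and 6.11 ± 2.18 in knockout (log2 -0.63, SE 0.33).

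For other hydroxylases, Plod1, a lysyl hydroxylase of collagen, had a peak annotated as exonic that spans its start (chr4:147936362-147936925). It had 23.9, 33.7, 29.0 and 31.2 CPM in wild type and 25.3, 28.0, 20.2 and 16.8 in knockout, which overlapped (log2 -0.48, SE 0.20, edgeR unadjusted p = 0.0226, adjusted p = 0.943). Hif1an, the asparaginyl hydroxylase that limits the activity of hypoxia-inducible factors, had a log2 of -0.00092 (SE 0.11). Phyh, which acts on branched fatty acids in peroxisomes, had 0.20 (SE 0.17), with all 4 peaks above 0. Jmjd6 had -0.16 (SE 0.30) and Plod3 -0.43 (SE 0.37). Both genes were low, with 9.26 to 13.3 CPM for Jmjd6 and 6.76 to 11.9 for Plod3 in wild type.

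**Figure D3:**
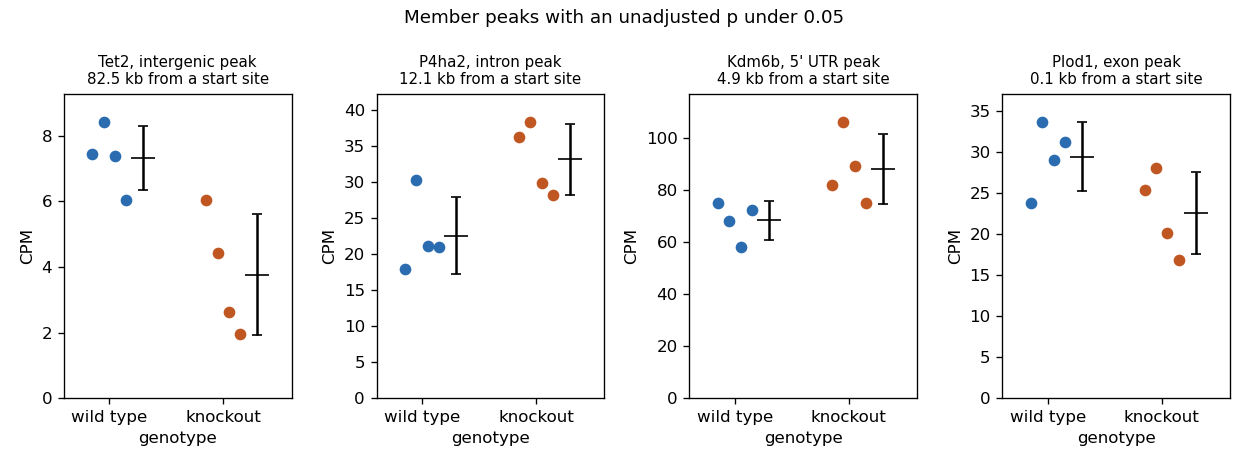
CPM in each library at the 4 member peaks with an unadjusted p under 0.05 (points are libraries in replicate order, bars the mean and SD). Only the Tet2 peak has no overlap, by a very narrow margin, with knockout at 1.94 to 6.03 against 6.06 to 8.43 CPM in wild type.

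Peaks at start sites and elsewhere gave the same count of calls. Summed over promoter peaks, 0 of 25 tested members passed (edgeR; 0.0781% of all genes did), and 1, Kdm6a, had an unadjusted p under 0.05, where 4.72% of genes did. At 1, Kdm3b, the genotypes did not overlap in this fit (2.84% of genes), with knockout lower. That sum is the single promoter peak named above, whose CPM overlapped in the fit of peaks, so the separation rests on the scaling. Summed over all other peaks, 0 of 25 passed (0.359% of all genes did) and 0 had an unadjusted p under 0.05, against 6.13%. At 1, Kdm6b, the genotypes did not overlap in this fit (4.07% of genes), with knockout higher. Its tags are those of the gene sum, whose CPM overlapped, so this separation rests on the scaling too. DESeq2 was not run on these sums. The median log2 of member peaks was -0.09 at promoters and 0.05 in introns, against -0.06 and 0.03 over all tested peaks of those kinds.

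**Figure D4:**
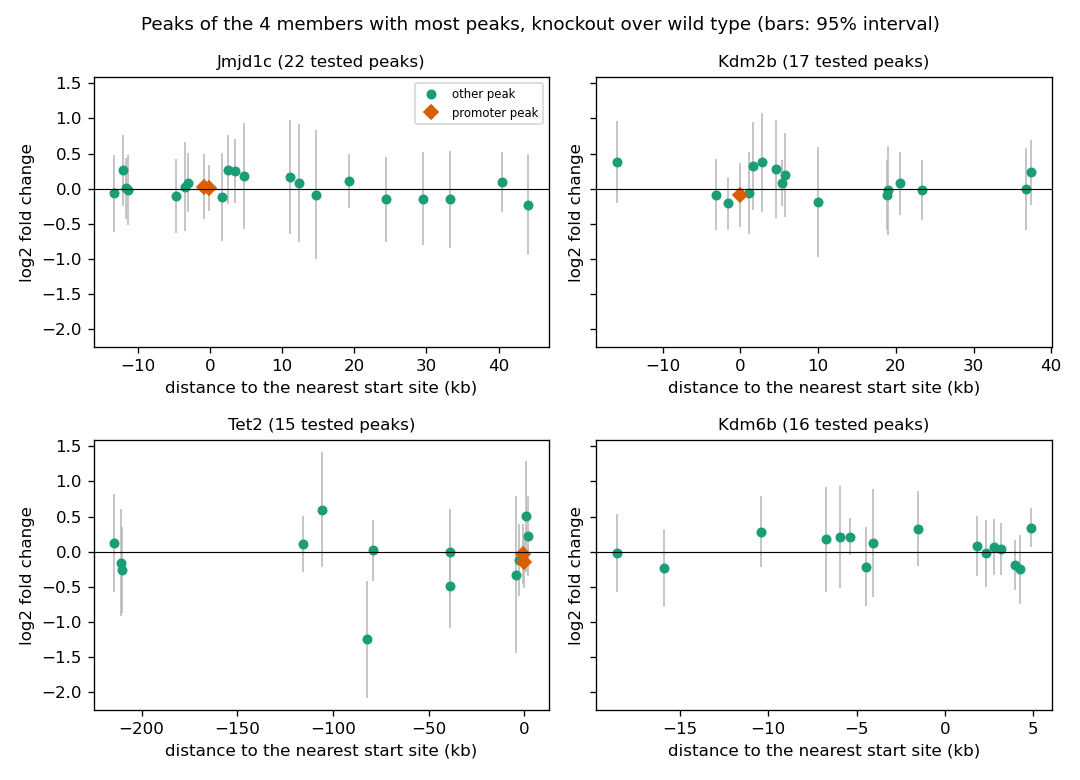
Log2 fold change (bars, 95% interval) of each tested peak of Jmjd1c, Kdm2b, Tet2 and Kdm6b against distance to the nearest start site in kb, with promoter peaks as orange diamonds. Most values lie near 0, and the lowest, -1.25, is the intergenic Tet2 peak.

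Kdm6a, an X-linked H3K27 demethylase, had the smallest p among genes. Its values were 78.0, 79.1, 61.2 and 60.1 CPM in wild type and 87.3, 92.6, 60.5 and 108 in knockout. The genotypes overlapped, since knockout replicate 3 lay among the low wild-type libraries. The log2 was 0.33 (SE 0.15, edgeR unadjusted p = 0.0334, adjusted p = 0.797), and all 4 peaks were above 0. Without knockout replicate 4 the log2 was 0.13, and without knockout replicate 3 it was 0.51. Its promoter peak, over the window shown above, had 39.6 to 49.2 CPM in wild type and 38.6 to 66.3 in knockout.

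Of the 3 X-linked members, Kdm5c and Kdm6a differed between libraries with many and with few tags on chromosome Y, while Phf8 overlapped. Chromosome Y peaks had 88 tags in knockout replicate 3, 201 and 255 in replicates 3 and 4 of wild type, and 1 to 13 in the other 5 libraries. Tags in all peaks were 2372666 in knockout replicate 3 and 1833704 and 2242252 in those wild-type replicates. Knockout replicate 3 thus had the lowest share of chromosome Y tags among the 3 libraries with many. Kdm5c had 23.4 to 26.97 CPM in the 3 libraries with many and 37.6 to 44.8 in the 5 with few. Kdm6a had 60.1 to 61.2 and 78.0 to 108. Phf8 had 53.7 to 62.3 and 54.7 to 74.1. Kdm6a and Kdm5c are known as genes that escape X inactivation and have Y-linked relatives. The promoter peak of Uty, the relative of Kdm6a, held 42 and 43 tags in wild-type replicates 3 and 4. It held 14 in knockout replicate 3 and 0 in the others. The groups were drawn from chromosome Y tags, so no test was made between them. With a term for many such tags in the model, the Kdm6a log2 was 0.21 (edgeR unadjusted p = 0.0728, adjusted p = 0.995), Kdm5c -0.01 and Phf8 -0.01. The 2 wild-type libraries with few Y tags averaged 78.5 CPM at Kdm6a, and the 3 such knockout libraries 96.1. The numbers of libraries with many Y tags, 2 of 4 in wild type and 1 of 4 in knockout, differ between the genotypes.

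**Figure D5:**
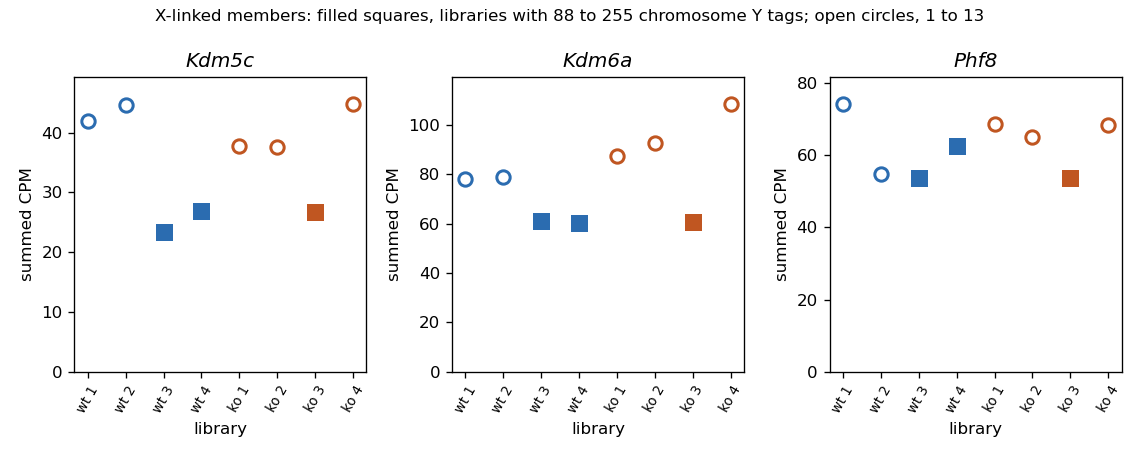
CPM per library of Kdm5c, Kdm6a and Phf8, with the libraries with many chromosome Y tags marked. At Kdm5c and Kdm6a the 3 marked libraries, at 23.4 to 26.97 and 60.1 to 61.2 CPM, lie below the other 5.

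Genes around these enzymes, in lists made with earlier results known, gave the same count. Among 27 makers and users of alpha-ketoglutarate, 0 passed by edgeR. Sdhd, a subunit of succinate dehydrogenase, Slc1a5, a glutamine transporter, and Dld had an unadjusted p under 0.05, 3 of 27 genes (11.1%) against 5.96% of all genes. Their log2 values were -0.86 (SE 0.25, edgeR adjusted p = 0.369), -0.62 (SE 0.20, adjusted p = 0.501) and -0.50 (SE 0.20, adjusted p = 0.715). The list had 8 genes above 0 and 19 below, with a median of -0.085, where all tested genes had 7808 above and 7668 below and a median of 0.0020. Of 27 methyltransferases opposing the demethylases, 0 passed (median 0.0066). At an unadjusted p under 0.05 there were 2, both lower: Nsd1, an H3K36 methyltransferase (log2 -0.29, SE 0.10, edgeR adjusted p = 0.533), and Kmt2b, an H3K4 methyltransferase (log2 -0.45, SE 0.18, adjusted p = 0.715). In the hypoxia-inducible factor pathway, 0 of 19 tested genes passed (median 0.022). At that unadjusted level there were 2, in opposite directions: Mxi1, an antagonist of Myc (log2 -0.24, SE 0.07, edgeR adjusted p = 0.484), and Hif3a, a hypoxia-inducible factor subunit (log2 0.34, SE 0.12, adjusted p = 0.600). Of 23 tested other oxygenases of the family, 0 passed and 0 had an unadjusted p under 0.05 (median 0.0022), with P3h2 first by p (log2 0.14, edgeR adjusted p = 0.894). Among microglia markers, 8 of 10 were above 0, 0 passed and 2 had an unadjusted p under 0.05, against 5.96% of all genes. Both were higher: Csf1r, a growth factor receptor of microglia (log2 0.26, SE 0.08, edgeR adjusted p = 0.369), and Tmem119 (log2 0.24, SE 0.09, adjusted p = 0.633). In the other marker lists 0 passed. At that unadjusted level Ms4a7 (border macrophage, log2 0.60, SE 0.23, edgeR adjusted p = 0.662) and Syt1 (neuron, log2 0.62, SE 0.24, adjusted p = 0.671) were higher. Tested markers above 0 numbered 3 of 3 for the oligodendrocyte lineage and 3 of 4 for astrocytes. They numbered 2 of 4 for neurons and for border macrophages, and 1 of 4 for endothelial and mural cells.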

How the data were processed

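ATAC-seq tags were counted in 67822 peaks in 8 libraries of forebrain CD11b-positive microglia, 4 per genotype. Tools named in the submitters' processing notes are Bowtie2, HOMER and DESeq2, with the build mm10. For settings, duplicate removal and any shift of read ends, the step is not given in the sources used here. Per the file headers, the authors merged peak lists of each genotype and counted tags with at most 3 per position. The deposited counts are whole tags per peak. The deposited normalized signal is the same tags scaled by the authors to 10000000 per library, and it was used only to check the counts.

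Counts were tested with edgeR 4.0.16 (R 4.3.3), with TMM scaling, filterByExpr (minimum count 10), the quasi-likelihood F test, two-sided, and Benjamini-Hochberg adjustment over all features, at 0.05, with genotype as the only term. Tags were also summed per gene, over promoter peaks and over other peaks, each fitted over all genes. Apart from the marker sums, CPM are relative to the tags of that fit. Levels per kb of members at promoter and other peaks, and sums over groups of members, use the scale of the fit of genes. Intervals are 95%. The statistics were tested on simulated data, where 83.8% of 2-fold and 50% of 1.5-fold changes of genes (15330 genes) and 38.7% and 1.05% of peaks (55540 peaks) were recovered. DESeq2 1.42.0 was an alternative. All members are named; peaks named singly are the 5 with smallest p in each direction, and the promoter peaks of genes discussed, and context genes those with the smallest p in their list. Slc1a5, Dld, Kmt2b, Hif3a, Tmem119 and the second P4ha2 peak were chosen after their values were seen. The members and lists were chosen with earlier results of these data known. Gene positions and sequences came from RefSeq tables of GRCm38.p6.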

Additional observations from a re-analysis of the deposited data

Results flagged for a closer look

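One value stood apart from the other libraries of its genotype. Jmjd6 held 13.3 CPM in wild-type replicate 3 against 9.26 to 9.73 in the other 3, a gap of 0.885 of the range by Dixon's ratio. Of 60 groups of 4 libraries examined, chance gives about 1 in 20.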

How the results depend on the processing

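Over 18 alternatives, no member gene passed; the smallest adjusted p of a member gene was 0.236. At single peaks 0 passed, except 1 without knockout replicates 1 and 2, an intergenic P4ha2 peak (chr11:54140015-54140239). It had 14.4, 35.8, 22.8 and 24.2 CPM in wild type and 37.4, 45.8, 7.46 and 7.12 in knockout replicates 1 to 4. Of 10 named peaks, 0 changed sign in the alternatives that tested them. They were picked for a small p in these libraries, so that count says little. Of 30 genes, 16 kept their sign throughout and 14 did not, all between -0.27 and 0.29. Over all features, called peaks (99) numbered 65 with DESeq2, 10 with scaling to all tags, 42 at a mean of 20 tags, 31 in peaks of both lists, 246 without knockout replicates 1 and 2, and 65 to 123 leaving out 1 library. Called genes (33) numbered 4 with all tags, 16 in both lists, 70 without those knockout libraries, and 20 to 42 leaving out 1 library. Member peaks with an unadjusted p under 0.05 (4) numbered 2 with DESeq2, 0 with all tags, 7 without a filter, 8 without both knockout libraries, and 4 to 9 leaving out 1 library. Member genes at that level (1) numbered 0 with DESeq2, all tags or the chromosome Y term, and 0 to 2 leaving out 1 library. Deviations of same-numbered libraries correlated at -0.0078, 0.096, -0.0083 and 0.15, and those of differently numbered libraries at -0.13 to 0.088. The 2 highest values were same-numbered, for replicates 2 and 4, and those for replicates 1 and 3 were near 0. With so few libraries this does not settle whether the numbers pair them. With the replicate block, 140 peaks and 38 genes were called, 0 of them members, and 7 member peaks and 1 member gene had an unadjusted p under 0.05. Scaling to all tags moved the median of all genes to 0.09. Depth limits single peaks, at 3 to 15 tags per library in the Tet2 peak.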
